A study of Homo sapiens with 6 samples.

Results

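Oxidative phosphorylation is the mitochondrial process that passes electrons from NADH and succinate to oxygen and uses the resulting proton gradient to make ATP. Complex I oxidises NADH, complex II oxidises succinate, complex III passes the electrons from ubiquinol to cytochrome c, complex IV hands them to oxygen and complex V, the ATP synthase, makes ATP. Most subunits are encoded in the nucleus and imported, and complexes I, III, IV and V also hold subunits encoded in mitochondrial DNA, so 2 genomes supply one machinery. Osteosarcoma cells in culture use this pathway beside glycolysis. The genes described here are the nuclear subunit genes, chosen by symbol and by no measured value: names starting NDUFA, NDUFB, NDUFC, NDUFS or NDUFV and a digit, UQCR, COX4 to COX8, SDHA to SDHD, and ATP5F, ATP5M or ATP5P. They made up 88 of the 19940 gene rows: 39 of complex I, 4 of complex II, 9 of complex III, 17 of complex IV and 19 of complex V. NDUFA4 falls in complex I by its symbol although its protein is now placed in complex IV, and 2 of the rows are readthrough transcripts, NDUFC2-KCTD14 and ATP5MF-PTCD1.

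The cells were U2OS, a human osteosarcoma line, with a stable GFP-DCP1A transgene kept under G418 selection; DCP1A is a protein of the mRNA decapping complex. Total RNA freed of ribosomal RNA was sequenced in 6 libraries. In the rescue group, 300 mM sodium medium for 4 h was followed by isotonic medium for 4 h; in the hypertonic group cells had 300 mM sodium for 4 h; the isotonic cells stayed at 150 mM sodium with a mock supplement. Each group had 2 libraries, every cell carried the transgene, and the labels leave unsaid whether the line was 1 clone. The rescue cells were harvested after a further 4 h with no isotonic control of that time, so rescue and later harvest cannot be told apart. Whether both libraries of a label were grown as separate cultures is not stated. A p-value is therefore judged only against the scatter of these libraries, and that scatter may be technical. The design text states as its purpose to assess transcriptional changes.

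Library totals were between 91973726 and 105991428 counts in rescue, 101403615 and 103529255 in hypertonic and 90196278 and 105336183 in isotonic, so that 3 counts, taken as the floor of detection, were 0.0283 to 0.0333 CPM, the count scaled by the library total. The libraries labelled hypertonic and isotonic did not group by label. Over the 79 members averaging 5 CPM or more, the SD of the log2 ratio was 0.047 between hypertonic 2 and isotonic 1 and 0.078 between hypertonic 1 and isotonic 2. It was 0.311 between the 2 hypertonic libraries, 0.308 between the 2 isotonic libraries and 0.065 between the 2 rescue libraries. The groups were kept as labelled, and the counts of calls are also given within number 1 (without hypertonic 2 and isotonic 2) and within number 2 (without hypertonic 1 and isotonic 1). In these number 1 and number 2 fits a lone library stands for its group and is assumed to vary like the rescue pair. The 6 bone and mesenchymal markers were all measured, at a summed 3490 and 3286 CPM in rescue, 3476 and 3494 in hypertonic and 3546 and 3352 in isotonic. Markers of other cell types were low. The 4 epithelial markers summed to 17.4 and 16.2 CPM in rescue, 5.82 and 7.05 in hypertonic and 7.60 and 5.38 in isotonic. The 4 endothelial markers summed to between 7.93 CPM in hypertonic 2 and 32.3 CPM in rescue 1, and the 5 leukocyte markers to between 0.475 and 3.59 CPM, with no marker at 0 in all 6 libraries. Their part in the results was not tested. In rescue 690 and 699 rows held no count, against 1248 and 1653 in hypertonic and 1627 and 1270 in isotonic; the part of this difference in the results was not tested either.

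The upstream sequences of 5 genes are shown because these genes carry the results below: among members averaging 5 CPM or more, SDHA and NDUFV3 differed most, in opposite directions, between the hypertonic and isotonic libraries of number 1, and UQCR10, ATP5PB and NDUFB4 were among the genes lowest in rescue. Each runs over the 250 bases before the RefSeq gene start in GRCh38.p14, 5′ to 3′ on the gene's strand, all on plus strands. For SDHA, NDUFV3, ATP5PB and NDUFB4 the RefSeq start lies inside the gene span of GENCODE release 29, which begins further upstream, so the stretch lies in part or whole within that span. Capitals mark matches on either strand to the letters searched for 4 factors known to act on promoters of respiratory genes: NRF1 (GCGCANGCG), the ETS family that includes GABPA (CCGGAAG), YY1 (AANATGGCG) and ESRRA (TNAAGGTCA). A match is a description of the letters, and not a site shown to be bound.
SDHA, chr5:218070-218319: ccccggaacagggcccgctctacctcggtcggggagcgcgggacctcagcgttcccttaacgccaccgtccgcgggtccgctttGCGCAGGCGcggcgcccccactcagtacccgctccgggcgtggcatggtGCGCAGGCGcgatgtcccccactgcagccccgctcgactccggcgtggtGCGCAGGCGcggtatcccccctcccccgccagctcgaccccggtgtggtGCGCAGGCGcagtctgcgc
NDUFV3, chr21:42893059-42893308: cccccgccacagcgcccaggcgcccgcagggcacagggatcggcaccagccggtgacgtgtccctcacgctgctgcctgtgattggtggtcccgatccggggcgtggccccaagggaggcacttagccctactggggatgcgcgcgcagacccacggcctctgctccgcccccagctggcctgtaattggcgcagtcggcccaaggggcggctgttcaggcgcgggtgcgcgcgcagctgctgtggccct
UQCR10, chr22:29767119-29767368: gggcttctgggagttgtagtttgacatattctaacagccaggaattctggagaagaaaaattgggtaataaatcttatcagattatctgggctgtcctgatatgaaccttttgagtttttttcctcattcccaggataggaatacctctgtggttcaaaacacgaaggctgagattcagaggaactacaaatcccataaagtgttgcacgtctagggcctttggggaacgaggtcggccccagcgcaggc
ATP5PB, chr1:111449214-111449463: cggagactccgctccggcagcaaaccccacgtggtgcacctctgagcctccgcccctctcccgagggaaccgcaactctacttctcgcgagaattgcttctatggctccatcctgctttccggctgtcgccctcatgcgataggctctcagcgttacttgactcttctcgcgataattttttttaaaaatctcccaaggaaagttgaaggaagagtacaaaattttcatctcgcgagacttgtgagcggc
NDUFB4, chr3:120596086-120596335: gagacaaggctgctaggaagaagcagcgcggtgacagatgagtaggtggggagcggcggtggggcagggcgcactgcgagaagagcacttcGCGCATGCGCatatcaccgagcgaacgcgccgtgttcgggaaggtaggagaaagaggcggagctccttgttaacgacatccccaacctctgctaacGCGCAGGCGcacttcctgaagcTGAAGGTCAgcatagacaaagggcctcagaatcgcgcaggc
The SDHA stretch held the NRF1 letters 4 times, at 166, 117, 68 and 19 bases before the RefSeq start, the last 2 inside the GENCODE span. NDUFB4 held them at 159, 158 and 63 bases, the first 2 overlapping each other, with the ESRRA letters at 41 bases. NDUFV3 and ATP5PB held none of the 4 motifs before the start. UQCR10 held NRF1 and YY1 letters that reached past the start, and NDUFB4 held further NRF1 letters that did so. RefSeq windows of 250 bases before to 50 bases after the start were at hand for 67 of the 88 members and for 14896 of the 19907 distinct names in the tables. The NRF1 letters were in 32.8% of the members' windows and 12.7% of all windows. The ETS letters were in 29.9% of the members' windows and 16.7% of all windows, and the YY1 letters in 25.4% and 5.79%. At least 1 of the 4 motifs was present in 64.2% of the members' windows against 30.7% of all windows. It was present in 72.5% of windows of mitochondrial and 56.5% of cytosolic ribosomal protein genes, so a high share was not particular to the members. In these 2 sets the NRF1 letters were in 20.3% and 13.0%, the ETS letters in 43.5% and 34.8%, and the YY1 letters in 26.1% and 13.0%.

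A pair of members are copies of others made without introns, and their sequence bears on how their reads can be told apart. ATP5MGL matched ATP5MG, the gene of subunit g of the ATP synthase, at 282 of 300 coding bases compared (94.0%), and UQCRHL matched UQCRH, the hinge subunit of complex III, at 269 of 273 (98.5%). The first 90 coding bases of the ATP synthase pair, from GENCODE release 29, differ at the 7 positions in capitals, whereas those of the UQCRH pair are identical.
ATP5MG, chromosome 11: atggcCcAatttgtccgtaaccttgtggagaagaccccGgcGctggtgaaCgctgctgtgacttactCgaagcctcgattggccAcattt
ATP5MGL, chromosome 22: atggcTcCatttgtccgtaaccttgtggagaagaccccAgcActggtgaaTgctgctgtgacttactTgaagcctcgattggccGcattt
Counts of UQCRHL and ATP5MGL, and of members with processed pseudogenes (45 of the 88 have at least 1 named in GENCODE release 29), are therefore uncertain, as are those of the 42 members whose span overlaps another protein-coding gene. The treatment of strand and introns in counting is not stated in the labels.

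By library total, the 88 genes together took between 0.416% and 0.466% of all counts in every library. Their summed level was 4297 and 4163 CPM in rescue, 4330 and 4649 CPM in hypertonic and 4659 and 4295 CPM in isotonic, so that both rescue libraries lay below both hypertonic ones and overlapped isotonic, while hypertonic 2 and isotonic 1 lay above the rest. Complex V differed most between rescue and isotonic, at 1363 and 1297 CPM in rescue, 1436 and 1512 CPM in hypertonic and 1532 and 1437 CPM in isotonic, with no overlap between rescue and the other 4 libraries. Complex IV stayed closest, at 670 and 644 CPM in rescue, 648 and 664 CPM in hypertonic and 655 and 643 CPM in isotonic, and its highest library was 4.09% above its lowest. Complex II summed to 281 and 281 CPM in rescue, 327 and 291 CPM in hypertonic and 287 and 327 CPM in isotonic. Its 2 high libraries were hypertonic 1 and isotonic 2, whereas complex I was lowest in these same 2, at 1548 and 1516 CPM in rescue, 1484 and 1710 CPM in hypertonic and 1703 and 1464 CPM in isotonic. Complex III summed to 434 and 425 CPM in rescue, 434 and 472 CPM in hypertonic and 482 and 423 CPM in isotonic. These sums carry no test. Relative to isotonic, the rescue mean of the sum was 1.16% higher for complex IV and 10.4% lower for complex V by library total; with TMM scaling, which sets libraries level on their central genes, the sums were 17.6% and 26.9% lower.

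**Figure D1:**
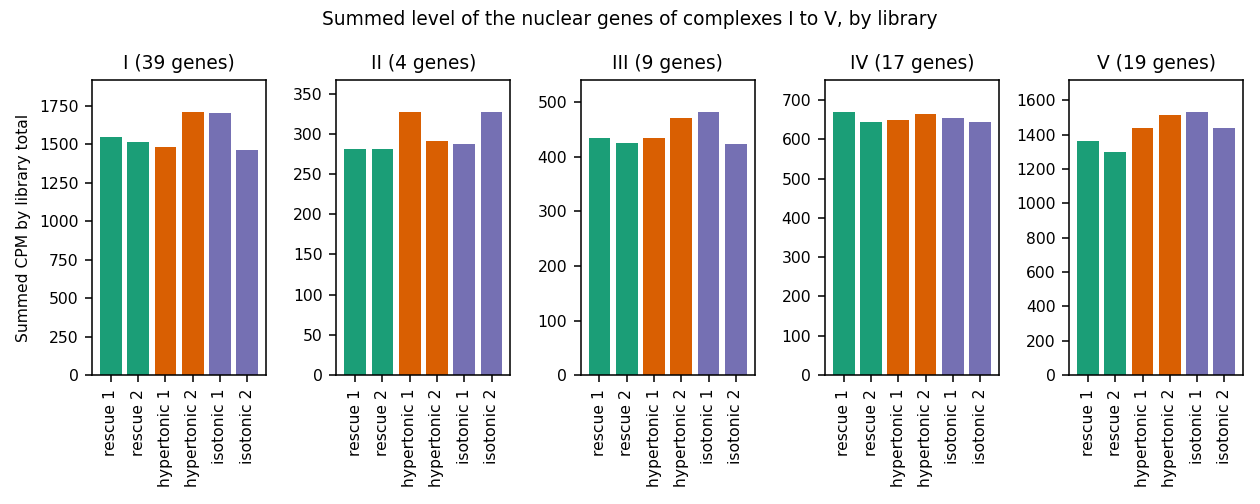
Summed CPM by library total (vertical axes, starting at 0) of the genes of complexes I to V in each of the 6 libraries, with rescue in green, hypertonic in orange and isotonic in purple; each bar is 1 library. Complex IV stayed within 4.09% over the libraries, while the bars of complexes I and II in hypertonic 1 and isotonic 2 lay on opposite sides of those in hypertonic 2 and isotonic 1.

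Rescue against isotonic asked how the cells stood 4 h after the return to isotonic medium. Of the 88 genes 87 passed the filter on low counts, the exception being COX4I2. In the edgeR quasi-likelihood fit over all 18208 genes tested, with Benjamini-Hochberg adjustment and a threshold of 0.05, 13 members (14.9%) fell and 1 (1.15%) rose, against 13.5% and 9.61% of all genes tested. The share of members that fell was near that of all genes. Among the 13 were NDUFB4, NDUFC1 and NDUFS1 of complex I, SDHB of complex II, UQCR10 of complex III, COX5A of complex IV, and ATP5PB, ATP5MC3, ATP5MC1, ATP5F1C, ATP5PO and ATP5F1A of complex V. The median log2 fold change was −0.31 over the members and −0.02 over all genes, and 79 of the 87 members lay below the median of all genes. Among genes averaging 5 CPM or more the medians were closer, at −0.33 over the 79 members and −0.20 over all 13155 genes, and 58 of the 79 lay below that of all genes. Against hypertonic, 15 members fell and 1 rose, against 13.8% and 9.86% of all genes tested; the 15 held those same 13 with NDUFA5 and COX8A. The 2 comparisons share the rescue libraries, and the hypertonic and isotonic libraries were alike across labels, so the second is no independent repeat.

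Several limits apply to these counts. The fit shares its spread over all groups, and the unlike libraries within the hypertonic and isotonic labels enter it. The p-values of rescue, and which members passed, therefore depend on that unlikeness too. Scaling by library totals alone moved the median of all genes up by 0.29 (log2), left 2 members lower, UQCR10 and ATP5PB, and made 65.2% of all calls higher ones, against 41.6% with TMM; all 13 genes kept a negative sign under the 4 scalings tried. Leaving out any 1 of the rescue or isotonic libraries left no call among the members or among all genes. Within number 1, 63 members (72.4%) fell and 5 (5.75%) rose, against 38.6% and 40.5% of all genes; within number 2, 61 members (69.3%) fell and 6 (6.82%) rose, against 40.1% and 40.7%. All 13 genes had a negative log2 in both of these fits. Both fits hold the same rescue libraries and use libraries of the fit that called the 13, so this is no independent repeat.

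**Figure D2:**
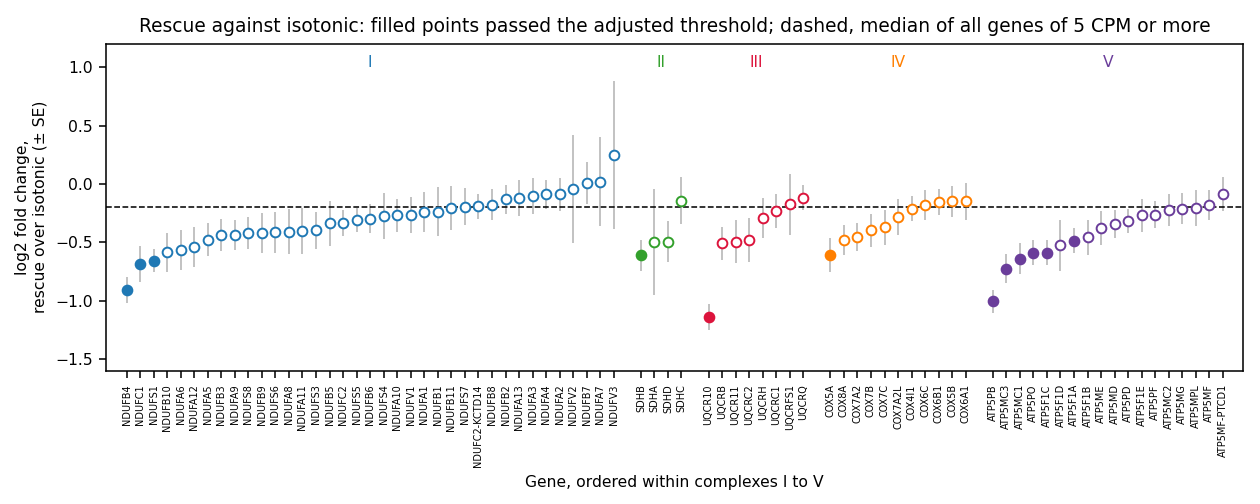
Log2 fold change of rescue over isotonic ± SE (vertical axis) for 78 of the 79 genes averaging 5 CPM or more, ordered within complexes I to V (horizontal axis); filled points passed the adjusted threshold and the dashed line is the median of all genes at that level, −0.20. Of the 79 genes 58 lie below the line, and the points run from −1.14 for UQCR10 to 0.24 for NDUFV3.

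In complex V, ATP5PB, the b subunit of the stalk that holds the ATP synthase still, had 95.6 and 88.7 CPM in rescue, compared with 147 and 159 CPM in hypertonic and 157 and 144 CPM in isotonic. The rescue libraries lay below all others without overlap. In the fit with TMM scaling rescue was 2.01-fold below isotonic (edgeR adjusted p = 0.0094), a wider gap than these CPM by library total show. Its span overlaps that of WDR77 on the opposite strand, which fell too, at 49.4 and 46.3 CPM in rescue, 97.0 and 82.5 CPM in hypertonic and 83.0 and 94.3 CPM in isotonic. Whether reads of WDR77 were counted in ATP5PB was not tested. Of the 3 genes that encode the same c subunit of the rotor, ATP5MC1 and ATP5MC3 fell and ATP5MC2 did not pass the test. ATP5MC3 had 44.0 and 39.9 CPM in rescue, 56.2 and 56.9 CPM in hypertonic and 57.9 and 55.4 CPM in isotonic (log2 rescue over isotonic −0.73 ± 0.13 SE, as in what follows, edgeR adjusted p = 0.022). ATP5MC1 had 20.2 and 19.7 CPM in rescue, 24.2 and 28.3 CPM in hypertonic and 27.5 and 23.3 CPM in isotonic (log2 −0.64 ± 0.13, edgeR adjusted p = 0.033). ATP5MC2 had 91.7 and 87.0 CPM in rescue, 73.1 and 93.9 CPM in hypertonic and 96.6 and 74.5 CPM in isotonic (log2 −0.22 ± 0.14, edgeR adjusted p = 0.31). Thus the rescue values of ATP5MC1 and ATP5MC3 lay below the other 4 libraries, and those of ATP5MC2 lay between them. In the catalytic head, the alpha subunit gene ATP5F1A had 247 and 233 CPM in rescue, 269 and 272 CPM in hypertonic and 278 and 270 CPM in isotonic (log2 −0.49 ± 0.11, edgeR adjusted p = 0.038). Its partner ATP5F1B, the beta subunit, had 220 and 206 CPM in rescue, 243 and 228 CPM in hypertonic and 228 and 248 CPM in isotonic, and did not pass (log2 −0.46 ± 0.15, edgeR adjusted p = 0.099). ATP5F1C, the gamma shaft, and ATP5PO, which links stalk and head, both had a log2 of −0.59 ± 0.11 (edgeR adjusted p = 0.025 each). The remaining complex V genes averaging 5 CPM or more did not pass, and the log2 values ran up to −0.09 for ATP5MF-PTCD1.

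ATP5MGL stood apart in the hypertonic libraries. It had 0.896 and 0.794 CPM in rescue, 4.29 and 0.570 CPM in hypertonic and 4.27 and 3.77 CPM in isotonic. Hypertonic 2 was thus with the rescue libraries and not with isotonic 1, which it resembled at the other members. It did not pass in rescue against isotonic (log2 −2.54 ± 1.02, edgeR adjusted p = 0.15). It lies within CYB5R3 on the same strand, which had 160 and 150 CPM in rescue, 134 and 141 CPM in hypertonic and 143 and 127 CPM in isotonic.

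In complex I, NDUFB4, an accessory subunit of the membrane arm, had 36.2 and 35.2 CPM in rescue, 51.9 and 56.7 CPM in hypertonic and 59.3 and 50.5 CPM in isotonic (log2 −0.91 ± 0.11, edgeR adjusted p = 0.012). NDUFS1, the large iron-sulfur subunit of the NADH-oxidising end, had 71.8 and 69.8 CPM in rescue, 85.1 and 97.9 CPM in hypertonic and 98.3 and 84.4 CPM in isotonic (log2 −0.66 ± 0.10, edgeR adjusted p = 0.017). Rescue again lay below the other 4 libraries for both. NDUFC1 had 10.5 and 11.4 CPM in rescue, 13.6 and 16.1 CPM in hypertonic and 14.9 and 13.8 CPM in isotonic (log2 −0.69 ± 0.15, edgeR adjusted p = 0.038), and its span overlaps NAA15 on the opposite strand, whose log2 was −1.70 ± 0.15. The part of NAA15 reads in NDUFC1 was not tested. NDUFV1, which carries the NADH-binding flavin, had 43.6 and 40.7 CPM in rescue, 37.0 and 46.9 CPM in hypertonic and 47.3 and 35.8 CPM in isotonic, and did not pass (log2 −0.27 ± 0.15, edgeR adjusted p = 0.28). Its rescue values lay between the libraries of each other group. Of the 38 complex I genes averaging 5 CPM or more, none rose, and log2 values ran up to 0.24 for NDUFV3. NDUFA4 had 138 and 129 CPM in rescue, above the 116 and 116 CPM in hypertonic and 114 and 117 CPM in isotonic by library total, while its log2 with TMM was −0.09 ± 0.13, so its sign depended on the scaling. Its paralog NDUFA4L2, known as a gene induced by hypoxia, had 1.89 and 1.48 CPM in rescue, 2.41 and 1.06 CPM in hypertonic and 1.02 and 2.05 CPM in isotonic. The readthrough row NDUFC2-KCTD14 had 70.0 and 69.7 CPM in rescue, 65.2 and 68.1 CPM in hypertonic and 65.4 and 64.5 CPM in isotonic. It was at least as high as NDUFC2 and KCTD14 added together in 4 of the 6 libraries, so reads may be counted in more than 1 row. ATP5MF-PTCD1, the other readthrough row, had 87.3 and 84.0 CPM in rescue, 65.8 and 83.9 CPM in hypertonic and 85.6 and 63.5 CPM in isotonic.

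In complexes II and III, SDHB, the iron-sulfur subunit of succinate dehydrogenase, had 32.0 and 32.1 CPM in rescue, 38.5 and 39.9 CPM in hypertonic and 39.0 and 40.6 CPM in isotonic. It was the 1 of the 4 complex II genes that fell (log2 −0.61 ± 0.14, edgeR adjusted p = 0.039). SDHD, a membrane anchor, had 52.2 and 51.9 CPM in rescue, 49.5 and 69.8 CPM in hypertonic and 68.6 and 51.6 CPM in isotonic. UQCR10, a small subunit of complex III, had 27.5 and 26.7 CPM in rescue, 46.1 and 48.9 CPM in hypertonic and 51.0 and 46.3 CPM in isotonic. Its rescue level lay below isotonic with no overlap, by 2.20-fold in the fit with TMM scaling (log2 −1.14 ± 0.11, edgeR adjusted p = 0.0095) and by less in these CPM. No other protein-coding gene overlaps the span of UQCR10. Among the other complex III genes, UQCRB had a log2 of −0.51 ± 0.14 (edgeR adjusted p = 0.069) and UQCR11 one of −0.50 ± 0.18 (edgeR adjusted p = 0.12). UQCRC1, a core subunit, had 86.8 and 84.8 CPM in rescue, 86.9 and 79.5 CPM in hypertonic and 80.3 and 83.4 CPM in isotonic, so that by library total rescue lay above isotonic and overlapped hypertonic, with a negative log2 by TMM. UQCRH had 69.1 and 67.6 CPM in rescue, 73.3 and 62.5 CPM in hypertonic and 67.1 and 69.2 CPM in isotonic. Its intronless copy UQCRHL had 6.80 and 5.80 CPM in rescue, 4.37 and 3.79 CPM in hypertonic and 3.75 and 4.76 CPM in isotonic, and did not pass (log2 0.26 ± 0.29, edgeR adjusted p = 0.55).

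Complex IV has subunits with tissue-specific isoforms, and the 1 member that rose in rescue was among these. COX7B2, an isoform of COX7B known for expression in testis, had 78 and 80 counts in rescue, against 2 and 2 in hypertonic and 4 and 3 in isotonic. In CPM these were 0.736 and 0.870 in rescue, 0.020 and 0.019 in hypertonic and 0.038 and 0.033 in isotonic. The rescue CPM was 22.3 times that of isotonic (95% exact interval of the counts 10.6 to 56.4, counting error only), and the gene rose (edgeR adjusted p = 0.011). COX7B2 passed the filter on low counts only through its rescue libraries, where it was high, so its call is a description and no independent support. Its span of 174409 bases is long beside its 807 exonic bases, and reads in exons and introns were not separated. COX8C, likewise a testis isoform, had 26 and 22 counts in rescue, 2 and 0 in hypertonic and 1 and 0 in isotonic, and did not pass (edgeR adjusted p = 0.066). It too passed the filter on low counts only through rescue. It lies within UNC79 on the same strand, which rose, at 12.2 and 14.2 CPM in rescue, 1.14 and 1.80 CPM in hypertonic and 1.46 and 0.965 CPM in isotonic; its part in the COX8C counts was not tested. COX6A2, the heart and muscle isoform, had 25 and 9 counts in rescue, 0 and 4 in hypertonic and 5 and 2 in isotonic, with a wide spread within rescue. COX4I2, the isoform known from lung and low oxygen, had 3 and 4 counts in rescue, 2 and 0 in hypertonic and 1 and 17 in isotonic, and was not tested in the fit over all 6 libraries. COX7A1, the heart and muscle isoform, had 1.70 and 1.17 CPM in rescue, 1.75 and 1.75 CPM in hypertonic and 1.42 and 1.93 CPM in isotonic. In rescue the sum of 386 olfactory receptor genes, which U2OS cells are not known for, was 116 and 125 CPM, compared with 41.0 and 58.0 CPM in hypertonic and 61.1 and 41.4 CPM in isotonic; their relation to the counts of these isoforms was not tested.

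The widely expressed partners of these isoforms stayed closer together. COX4I1 had 109 and 104 CPM in rescue, 103 and 106 CPM in hypertonic and 102 and 99.1 CPM in isotonic, so that by library total rescue lay above isotonic and overlapped hypertonic, with a negative log2 by TMM. COX6A1 had 66.3 and 64.0 CPM in rescue, 62.3 and 56.1 CPM in hypertonic and 57.2 and 60.1 CPM in isotonic. COX7B had 66.2 and 60.7 CPM in rescue, 68.9 and 67.4 CPM in hypertonic and 66.5 and 69.4 CPM in isotonic. None of these 3 passed, and neither did COX6B1, COX7A2, COX8A or the supercomplex factor COX7A2L in rescue against isotonic. COX5A, a matrix-side subunit, was the member of complex IV that fell, at 27.9 and 25.8 CPM in rescue, 34.5 and 33.4 CPM in hypertonic and 33.5 and 33.1 CPM in isotonic (log2 −0.61 ± 0.15, edgeR adjusted p = 0.047). The 11 complex IV genes averaging 5 CPM or more had log2 values between −0.61 and −0.15.

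**Figure D3:**
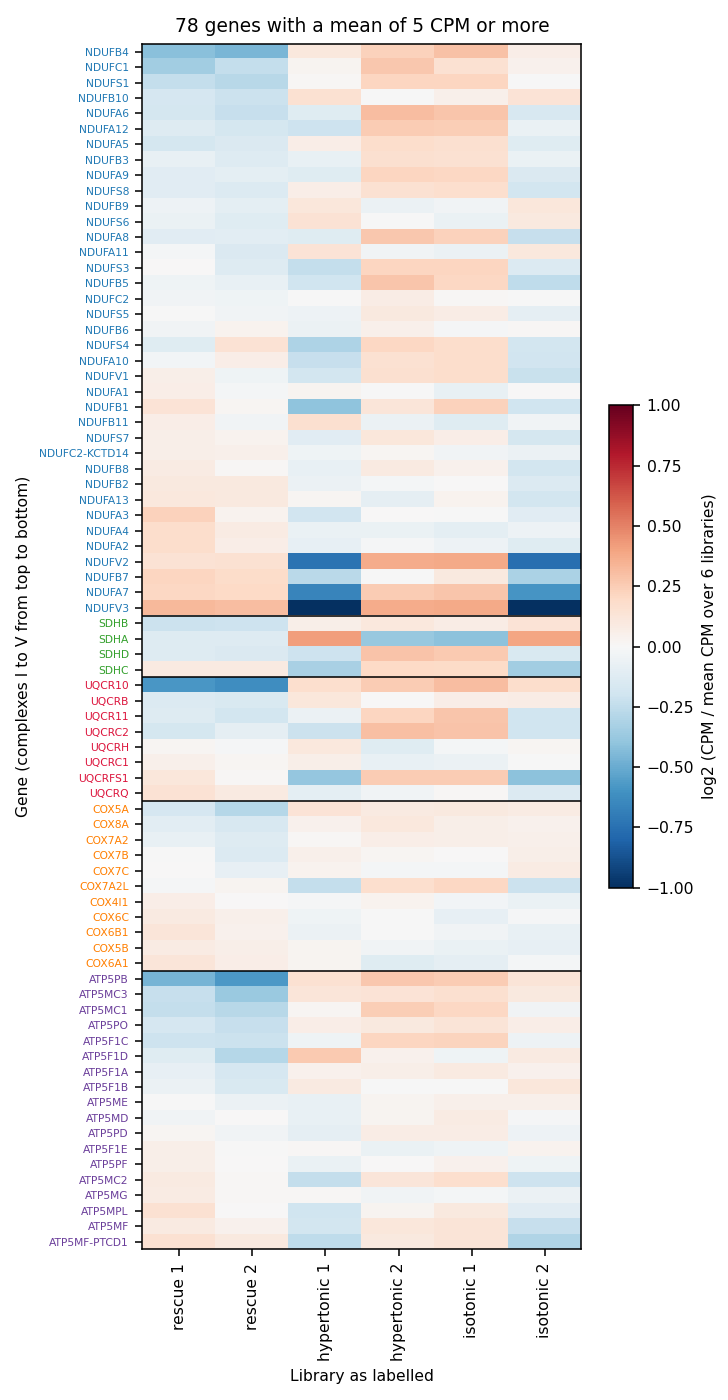
Level of 78 of the 79 genes averaging 5 CPM or more (rows, grouped from complex I at the top to complex V at the bottom and coloured by complex) in the 6 libraries (columns), as log2 of CPM over the gene's mean CPM; red is above and blue below the mean. NDUFV3, NDUFV2 and NDUFA7 are blue and SDHA is red in hypertonic 1 and isotonic 2, while NDUFB4, UQCR10 and ATP5PB are blue in both rescue libraries.

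Hypertonic against isotonic asked what 4 h at 300 mM sodium did. As labelled, none of the 87 members tested changed by edgeR's quasi-likelihood test, against 0.0% of all genes in each direction; 0 members had an unadjusted p under 0.05, and DESeq2 called 0 of 88. The crossed likeness of the libraries bears on this count, since the labelled groups each joined 2 unlike libraries. Within number 1, 22 members (25.3%) were higher and 19 (21.8%) lower in hypertonic, against 31.6% and 32.6% of all genes tested. Within number 2, 21 (23.9%) were higher and 17 (19.3%) lower, against 32.9% and 31.0%. Every member called in both fits had opposite directions in them. This was not particular to the members. Over all genes tested, number 1 minus number 2 in hypertonic correlated at −0.905 with the same difference in isotonic. No direction of change with hypertonic medium can be given for any of these members.

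**Figure D4:**
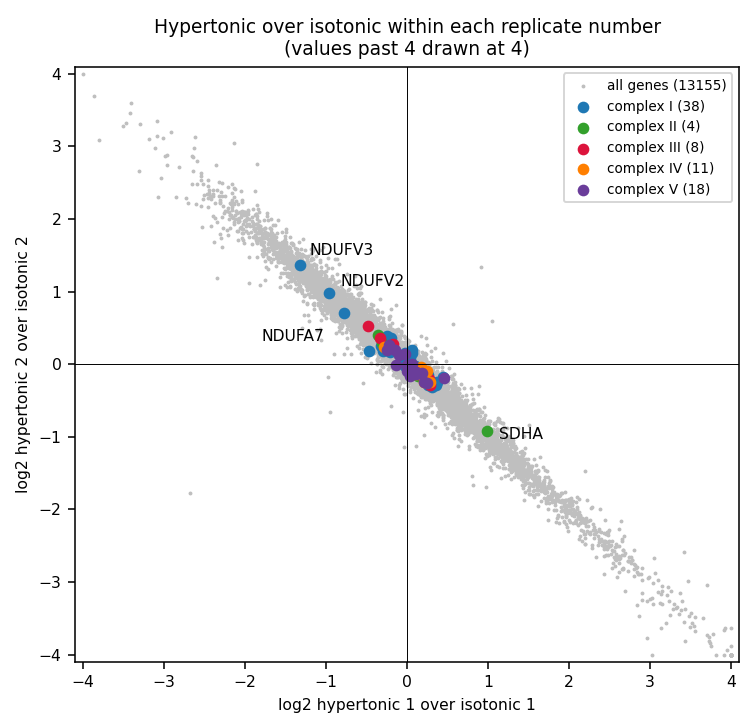
Log2 ratio of hypertonic 1 over isotonic 1 (horizontal axis) and of hypertonic 2 over isotonic 2 (vertical axis) from the number 1 and number 2 fits; grey points are the 13155 genes averaging 5 CPM or more and coloured points the 79 members by complex. Genes run from upper left to lower right, so that ratios had opposite signs in the 2 numbers, and most members lie near the centre, with NDUFV3, NDUFV2, NDUFA7 and SDHA outside it.

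Most members differed little even between the unlike libraries. Among the 79 averaging 5 CPM or more, 4 (5.06%) were 1.5-fold or more from the median of all genes in number 1, against 35.7% of the 13155 genes at that level, and 2 (2.53%) were 2-fold or more, against 16.9%. In number 2 the same 4 were past 1.5-fold, against 35.6%, and 1 (1.27%) was past 2-fold, against 16.7%. The SD of the log2 ratio was 0.32 over the members and 0.84 over all genes in number 1, and 0.30 and 0.84 in number 2. In complexes IV and V the SD was 0.15 and 0.18 in number 1, and no gene of complexes III, IV or V was past 1.5-fold. The 83 cytosolic ribosomal protein genes had an SD of 0.20 with 5 (6.02%) past 1.5-fold, and the 78 mitochondrial ribosomal protein genes one of 0.43 with 16 (20.5%). The 53 assembly factors for complexes I to V at that level, which build the complexes without staying in them, had an SD of 0.51 with 20 (37.7%) past 1.5-fold. These are descriptions of 1 pair of libraries each and carry no test. Across the 79 members, Spearman's rho of the log2 ratio with the length of the gene span was −0.33 in number 1 and 0.32 in number 2, against 0.04 and −0.08 over all genes with 1 location; the genes share the same libraries.

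**Figure D5:**
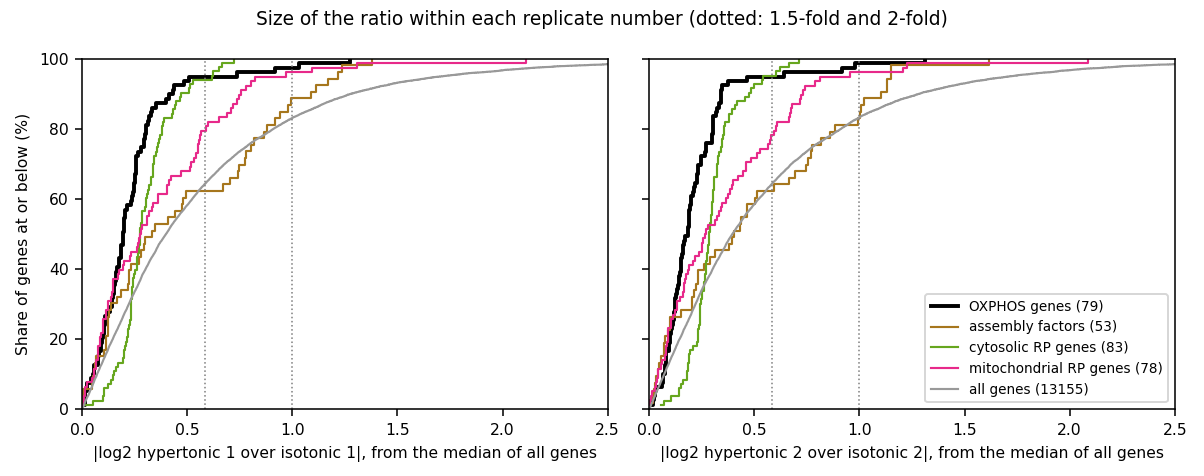
Cumulative share of genes (vertical axis, %) by the size of the log2 ratio of hypertonic over isotonic, measured from the median of all genes (horizontal axis), within number 1 (left) and number 2 (right), for genes averaging 5 CPM or more; dotted lines mark 1.5-fold and 2-fold. The curve of the 79 oxidative phosphorylation genes lies left of that of all genes, with 5.06% of them past 1.5-fold in each panel, while the assembly factors lie near all genes.

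The 4 genes past 1.5-fold encode subunits of complexes I and II, through which electrons enter the chain. NDUFV3, a small accessory subunit of the NADH-oxidising module of complex I, had 52.6 and 52.0 CPM in rescue, 19.6 and 54.5 CPM in hypertonic and 54.7 and 19.1 CPM in isotonic. Hypertonic 1 and isotonic 2 were low and the other 4 libraries alike, and hypertonic over isotonic had a log2 of −1.32 within number 1 and 1.37 within number 2. NDUFV2, a core iron-sulfur subunit of that module, had 63.5 and 63.9 CPM in rescue, 34.4 and 74.2 CPM in hypertonic and 74.9 and 34.2 CPM in isotonic (−0.96 and 0.98). NDUFA7, an accessory subunit, had 10.0 and 9.94 CPM in rescue, 5.47 and 10.3 CPM in hypertonic and 10.5 and 5.75 CPM in isotonic (−0.78 and 0.70); its span overlaps RPS28 on the opposite strand, with 94.0 and 87.3 CPM in rescue, 78.2 and 68.9 CPM in hypertonic and 66.2 and 73.5 CPM in isotonic. All 3 were low in the same 2 libraries. SDHA, the flavoprotein of complex II that oxidises succinate, went the other way, with 128 and 128 CPM in rescue, 188 and 108 CPM in hypertonic and 106 and 184 CPM in isotonic (0.99 and −0.92). Hypertonic 1 and isotonic 2 were high and rescue lay in between. GENCODE release 29 names 3 SDHA pseudogenes, so its count may hold reads of theirs. Its partners SDHC and SDHD ran against it, with log2 values of −0.36 and −0.31 in number 1 and 0.40 and 0.29 in number 2. SDHC had 68.6 and 68.8 CPM in rescue, 51.6 and 74.0 CPM in hypertonic and 73.9 and 50.8 CPM in isotonic. The 4 subunits of one complex thus differed in opposite directions between the same libraries, with SDHB near level at 0.14 and −0.17.

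The other members averaging 5 CPM or more had smaller ratios. Of these, UQCRFS1, NDUFB11, ATP5F1D, COX7A2L and COX6A1 had the lowest or highest number 1 ratio of their complex. UQCRFS1, the Rieske iron-sulfur protein of complex III, had 61.3 and 57.4 CPM in rescue, 43.5 and 67.8 CPM in hypertonic and 67.8 and 42.8 CPM in isotonic (−0.48 and 0.52). Like the NADH-module genes it was low in hypertonic 1 and isotonic 2. NDUFB11 had 38.2 and 35.7 CPM in rescue, 40.8 and 34.9 CPM in hypertonic and 33.6 and 35.7 CPM in isotonic (0.44 and −0.17). ATP5F1D, the delta subunit of the ATP synthase, had 12.3 and 11.0 CPM in rescue, 16.0 and 13.8 CPM in hypertonic and 13.0 and 14.2 CPM in isotonic (0.46 and −0.19). In complex IV the ratios ran from −0.29 for COX7A2L to 0.28 for COX6A1 in number 1. Below 5 CPM, COX6B2, a testis isoform of COX6B1, had 3.63 and 3.14 CPM in rescue, 2.76 and 0.657 CPM in hypertonic and 0.684 and 2.52 CPM in isotonic (2.17 and −2.08). COX6B1 had 63.4 and 59.9 CPM in rescue, 55.9 and 58.2 CPM in hypertonic and 56.7 and 55.2 CPM in isotonic, so its libraries stayed close where those of COX6B2 did not.

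Outside the symbol rule lie 5 further genes of the machinery. CYC1, the cytochrome c1 of complex III, had 41.7 and 38.8 CPM in rescue, 59.1 and 69.7 CPM in hypertonic and 69.3 and 58.9 CPM in isotonic, and fell (log2 rescue over isotonic −0.96 ± 0.11, edgeR adjusted p = 0.012). CYCS, the mobile carrier cytochrome c, had 101 and 97.2 CPM in rescue, 203 and 182 CPM in hypertonic and 176 and 212 CPM in isotonic. It fell 2.42-fold in the fit with TMM scaling (log2 −1.27 ± 0.20, edgeR adjusted p = 0.019). Both were below the other 4 libraries in rescue. NDUFAB1, the acyl carrier protein of complex I, did not pass (log2 −0.48 ± 0.13, edgeR adjusted p = 0.063). ATP5IF1, the inhibitor of the ATP synthase, had a log2 of 0.04 ± 0.12. DMAC2L, listed in the tables under its older name ATP5S, had 48.3 and 48.3 CPM in rescue, 22.3 and 40.0 CPM in hypertonic and 41.9 and 23.9 CPM in isotonic.

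Among the assembly factors, 1 of 18 (5.56%) for complex I rose and 4 (22.2%) fell in rescue against isotonic. For complexes II and III 0 of 10 changed, and for complex V 0 of 4 changed. For complex IV 3 of 23 (13.0%) fell. Of all genes tested, 13.5% were lower and 9.61% higher. NDUFAF6 was the one that rose, at 247 and 254 CPM in rescue, 50.5 and 62.1 CPM in hypertonic and 63.0 and 51.5 CPM in isotonic (log2 1.84 ± 0.12, edgeR adjusted p = 0.0083). NDUFAF7, a methyltransferase needed to build complex I, had 38.4 and 39.3 CPM in rescue, 67.6 and 70.0 CPM in hypertonic and 69.5 and 70.1 CPM in isotonic (log2 −1.14 ± 0.12, edgeR adjusted p = 0.010). LRPPRC, which stabilises mitochondrial mRNAs, had 194 and 200 CPM in rescue, 259 and 328 CPM in hypertonic and 325 and 274 CPM in isotonic (log2 −0.90 ± 0.11, edgeR adjusted p = 0.012). In all 3 the rescue libraries lay outside the range of the other 4. Overlaps with other genes were not looked up for the assembly factors, so reads of such genes in these counts were not tested.

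Of 19 regulators of mitochondrial gene expression, 1 (5.26%) rose and 4 (21.1%) fell in rescue against isotonic, beside 9.61% and 13.5% of all genes tested. PPARGC1A, a coactivator of respiratory genes, had 7.10 and 6.95 CPM in rescue, 1.48 and 1.49 CPM in hypertonic and 1.35 and 1.86 CPM in isotonic, and rose (log2 1.82 ± 0.30, edgeR adjusted p = 0.021). Its paralog PPARGC1B went the other way, at 11.6 and 13.0 CPM in rescue, 17.1 and 18.1 CPM in hypertonic and 18.7 and 18.3 CPM in isotonic, and fell (log2 −0.88 ± 0.15, edgeR adjusted p = 0.023). The 2 coactivators thus moved in opposite directions, and neither group overlapped. TFAM, which packages and transcribes mitochondrial DNA, had 82.1 and 80.3 CPM in rescue, 125 and 116 CPM in hypertonic and 113 and 126 CPM in isotonic (log2 −0.86 ± 0.16, edgeR adjusted p = 0.029), and POLRMT, the mitochondrial RNA polymerase, also fell (log2 −0.61 ± 0.12, edgeR adjusted p = 0.031). Of the factors whose letters were searched in the promoters, NRF1 had 39.3 and 43.8 CPM in rescue, 37.6 and 52.4 CPM in hypertonic and 53.4 and 39.0 CPM in isotonic, and did not pass (edgeR adjusted p = 0.17). ESRRA had 20.0 and 18.1 CPM in rescue, 13.4 and 22.1 CPM in hypertonic and 21.3 and 13.9 CPM in isotonic, and did not pass either. Both were lower in hypertonic 1 and isotonic 2 than in hypertonic 2 and isotonic 1, while NRF1 in rescue 1 was near its level in isotonic 2. A relation of these factors to the levels of the members was not tested.

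The 13 mitochondrially encoded subunits, the partners of the nuclear ones, showed no call in rescue against isotonic by edgeR, with a median log2 of −0.17. MT-CYB, cytochrome b of complex III, had 3289 and 3167 CPM in rescue, 3098 and 3447 CPM in hypertonic and 3375 and 3066 CPM in isotonic. MT-ND1, a core subunit of complex I, had 2828 and 2673 CPM in rescue, 3867 and 3309 CPM in hypertonic and 3237 and 3877 CPM in isotonic, and did not pass (log2 −0.67 ± 0.20, edgeR adjusted p = 0.081). All mitochondrially encoded rows took 5.08% and 4.92% of the counts in rescue, 4.06% and 4.82% in hypertonic and 4.71% and 4.06% in isotonic. Their share was lowest in hypertonic 1 and isotonic 2, where the summed complex I genes were lowest as well by library total. With TMM scaling the complex I sum was lowest in rescue instead, at 1355 and 1315 CPM, against 1677 in hypertonic 1 and 1650 in isotonic 2. A relation between the 2 was not tested.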

How the data were processed

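The authors deposited raw counts per gene for each library. Per the submitters' processing notes, bcl2fastq, TopHat2, Bowtie2 and bedtools were used with GRCh38 (hg38); their versions, the annotation and the strand setting: not given in the sources used here. Per the labels' protocols, uridine digestion marked strand during library preparation. From the counts, CPM by library total was computed, and genes were tested with edgeR 4.0.16 in R 4.3.3 (filterByExpr, TMM, robust quasi-likelihood fit over all 6 libraries, Benjamini-Hochberg adjustment over all genes tested, threshold 0.05). The SE of a log2 fold change is its size over the square root of F. The tests were tried on simulated counts beforehand. The simulated libraries lacked the crossed likeness of the hypertonic and isotonic libraries, so the trial does not cover it. DESeq2 1.42.0, other scalings, no filter, left-out libraries and a block on the replicate number were the alternatives. Gene positions are those of GENCODE release 29, matched by symbol. Overlaps with other genes were looked up for the members only.

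Genes and lists were chosen with earlier results of these data known. Named were, within each complex, the 3 genes with the smallest p in rescue against isotonic and those with the highest and lowest number 1 ratio of hypertonic over isotonic, each with a mean of at least 5 CPM; isoform pairs, lead subunits and readthrough rows; up to 4 genes of each other list by p; and the members that were called, except 1 gene not reported here. NDUFA7, NDUFV2, ATP5MGL, UQCR11 and genes overlapping a member were added after their values were seen.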

Additional observations from a re-analysis of the deposited data

How the results depend on the processing

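The counts of members called in rescue depended on the settings, while RLE scaling and testing without the low-count filter kept them within 1.5 times. In rescue against isotonic, 13 members were lower and 1 higher; the lower count was 5 with upper quartile scaling, 2 with library totals only, 30 with DESeq2, 63 within number 1 and 61 within number 2, and the higher count was 2 with DESeq2, 5 within number 1 and 6 within number 2. Leaving out 1 library gave 0 to 9 lower and 0 to 2 higher members; it was 0 lower without any one rescue or isotonic library and 9 without either hypertonic library. In rescue against hypertonic, 15 were lower and 1 higher; the lower count was 5 with upper quartile scaling, 2 with library totals only, 29 with DESeq2, 66 within number 1 and 63 within number 2, and the higher count was 2, 6 and 4 with DESeq2, within number 1 and within number 2. Leaving out 1 library gave 0 to 8 lower and 0 to 1 higher members, with 8 lower without either isotonic library. In hypertonic against isotonic, the counts of 0 became 22 higher and 19 lower within number 1, and 21 higher and 17 lower within number 2. Calls over all genes moved with the settings too. In rescue against isotonic they were 4202 of 18208 genes in the main fit and 7027 of 19597 with DESeq2. They were 3495 with upper quartile scaling and 3145 with library totals only. The cause of these shifts was not tested. With a replicate block, 0 members and 0 genes in all were called in each comparison. The numbers did not pair the libraries: deviations correlated at −0.905 between hypertonic and isotonic, −0.025 between rescue and isotonic and 0.038 between rescue and hypertonic. A crossed pairing, added after seeing the data, called 21 genes and 0 members in hypertonic against isotonic. Signs reversed for NDUFA4L2 in rescue against isotonic (0.51 within number 1), for NDUFV3 in rescue against isotonic (−0.28 within number 1) and for NDUFV3 in rescue against hypertonic (−0.29 within number 2). Among members named after their values were seen, NDUFA7 was −0.30 within number 1 against isotonic and −0.28 within number 2 against hypertonic, against 0.02 and 0.06 over all libraries, and NDUFV2 was 0.52 within number 2 against isotonic and 0.51 within number 1 against hypertonic, against −0.04 and −0.05. In 70 further alternatives for named members a value that was not called changed sign. With TMM scaling the summed CPM of rescue relative to isotonic was −20.9% for complex I, −25.8% for complex II, −22.5% for complex III, −17.6% for complex IV, −26.9% for complex V and −22.9% for all. Counting error limits only the members under 5 CPM, 9 of the 88; with 2 libraries a group, an exact permutation test of 1 value cannot go below 0.333.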

Other observations

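Enzymes that feed the respiratory chain, and the pores and carriers that serve the ATP synthase, were also measured. Of 23 genes of the citrate cycle and pyruvate dehydrogenase, 5 (21.7%) fell and 0 rose in rescue against isotonic, beside 13.5% lower and 9.61% higher of all genes tested. CS, citrate synthase, had 155 and 148 CPM in rescue, 220 and 241 CPM in hypertonic and 237 and 225 CPM in isotonic, and fell (log2 −0.90 ± 0.10, edgeR adjusted p = 0.010). DLAT, the acetyltransferase of pyruvate dehydrogenase, had 33.5 and 32.6 CPM in rescue, 53.5 and 65.1 CPM in hypertonic and 63.7 and 55.0 CPM in isotonic, and fell (log2 −1.14 ± 0.12, edgeR adjusted p = 0.0098). Both lay below the other 4 libraries in rescue. A list of 12 genes held carriers and channels for ADP, ATP and phosphate. It also held the creatine kinases CKMT1A and CKMT1B and the uncoupling proteins UCP2 and UCP3. Of the 12, 3 (25%) fell, all of them outer membrane channels. VDAC3 had a log2 of −1.27 ± 0.11 (edgeR adjusted p = 0.0089), VDAC1 one of −0.67 ± 0.09 (edgeR adjusted p = 0.014) and VDAC2 one of −0.64 ± 0.09 (edgeR adjusted p = 0.015). Of 13 genes of coenzyme Q synthesis, 1 (7.69%) rose and 1 (7.69%) fell, both under the shares of all genes. COQ8A, a kinase-like protein of that pathway, had 86.2 and 85.0 CPM in rescue, 21.2 and 17.0 CPM in hypertonic and 18.0 and 19.0 CPM in isotonic, and rose (log2 1.91 ± 0.21, edgeR adjusted p = 0.011). Of 78 mitochondrial ribosomal protein genes 23 (29.5%) fell and 1 (1.28%) rose, and of 84 cytosolic ribosomal protein genes tested 1 (1.19%) fell and 0 rose, beside the same 13.5% lower and 9.61% higher of all genes. These counts share the scaling limits of the member counts, and the lists were not compared with each other by a test.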
